A study of Mus musculus with 4 samples.

Results

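The genes described here are 8 rows of a table of 23453 mouse genes, chosen by gene name. They are the neurotrophin genes Bdnf and Ntf3, the Trk receptor genes Ntrk2 and Ntrk3, the receptor gene Ngfr, and Sort1, Sorcs1 and Sorcs3 of the sortilin family. RNA was sequenced from primary hippocampal neurons of newborn C57BL/6NCrl mice on day 12 in vitro. The control group (2 libraries) received vehicle (DMSO) and stayed at basal activity. The AP bursting group (2 libraries) received 50 µM bicuculline, which blocks GABA-A receptors and so frees the network to fire bursts of action potentials (AP), and was harvested after 4 h. The labels name no genotype beyond the strain, and the cultures came from 2 independent cell preparations. The p-values of unpaired tests speak for the spread between 2 libraries per group. Those of fits that pair the libraries (below) do not measure that spread and rest on a variance trend over all genes.

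Neurotrophins are secreted growth factors that are made as longer precursors and cut to their mature form. The mature factors bind Trk receptor tyrosine kinases, with BDNF binding TrkB (Ntrk2) and NT-3, the product of Ntf3, binding mainly TrkC (Ntrk3), and they also bind the p75 receptor (Ngfr). Uncut precursors bind p75 together with sortilin (Sort1) or its relatives, and sortilin also steers pro-BDNF into the regulated secretory pathway. In hippocampus BDNF is known for its release from active neurons and its role in synaptic plasticity.

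Bdnf has several start sites, each spliced to a shared coding exon, so reads per gene do not tell which one was used. The RefSeq table (build GRCm38.p6) gave 7 Bdnf start windows, and windows for 6 of the 8 genes. Shown here are the 250 bases before the Bdnf starts at exons I and IV, the first and the third of the 7, since in rodents their promoters are the ones best known to respond to calcium, and before the start of Pcsk1, whose profile was among the 5 closest to that of Bdnf (below). Lines run 5′ to 3′ on the plus strand. Capitals mark matches on either strand to TGACGTCA (the cAMP response element, CRE), TCACGTCA (the CRE-like octamer known from exon IV, searched for that reason), CGTCA (the CRE core, part of both), TGANTCA (the AP-1 site) or TCGTG (the core bound by NPAS4).
Bdnf exon I start, chr2:109674450-109674699: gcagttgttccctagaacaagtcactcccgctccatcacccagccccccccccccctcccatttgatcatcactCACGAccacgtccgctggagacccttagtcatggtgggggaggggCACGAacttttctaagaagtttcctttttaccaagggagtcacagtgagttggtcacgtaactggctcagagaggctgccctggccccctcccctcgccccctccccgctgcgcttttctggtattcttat
Bdnf exon IV start, chr2:109692186-109692435: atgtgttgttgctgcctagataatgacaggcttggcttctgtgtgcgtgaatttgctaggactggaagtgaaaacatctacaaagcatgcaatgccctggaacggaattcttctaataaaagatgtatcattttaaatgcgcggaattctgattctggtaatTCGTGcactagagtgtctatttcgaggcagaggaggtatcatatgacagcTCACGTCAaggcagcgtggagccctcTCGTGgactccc
Pcsk1 start, chr13:75089607-75089856: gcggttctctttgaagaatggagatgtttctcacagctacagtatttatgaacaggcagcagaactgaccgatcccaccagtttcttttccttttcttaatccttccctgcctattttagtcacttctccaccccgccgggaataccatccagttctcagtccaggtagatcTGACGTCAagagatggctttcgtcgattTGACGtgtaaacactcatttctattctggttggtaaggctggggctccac

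The exon IV window of Bdnf held TCACGTCA from -38 to -31 relative to the start, a match found in 0.35% of 32851 windows of the same length. This octamer was searched because it is known from exon IV, so the match was fixed in advance. The Pcsk1 window held TGACGTCA from -78 to -71, found in 1.55% of windows. Matches to CGTCA (17.8% of windows), TCGTG (13.3%) and TGANTCA (6.75%) are common. The exon I window held 2 matches to TCGTG and none to the other 4 motifs. Of the remaining Bdnf windows, 1 held a match to TGANTCA and the last 4 held no match. The windows of Ntf3, Ntrk2, Ngfr, Sorcs1 and Sorcs3 held none either. Among the genes closest to Bdnf in profile, matches are given for Pcsk1 alone. No shared trait can be read from them. All matches are of letters and not shown to be sites.

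The deposited table gives 1 mean per group, which was split into its 2 libraries through the whole reads they contain. The deeper and the shallower library of a group are named deep and shallow. Genes that could be split summed to 20954659 (deep) and 13337809 (shallow) reads in controls, and to 24986848 and 12801785 reads after AP bursting. All 8 genes could be split. Libraries of the same depth resembled each other more than libraries of the same treatment (r = 0.962 between the deep and 0.936 between the shallow libraries, against 0.906 within controls and 0.873 within AP bursting, over 13648 genes). Deep and shallow libraries are therefore treated as pairs, an inference from the data and not a label. Defining neuron markers (Tubb3, Snap25, Syt1) were abundant, with summed means of 73437 and 78223 normalized reads. The summed level of 8 astrocyte markers was 14662 and 18732 in the deep and shallow controls and 15949 and 24734 after AP bursting. That of 6 microglia markers was between 45.0 and 80.9, and that of 4 fibroblast and vascular markers was 244 and 668 in controls and 279 and 1084 after AP bursting. The 7 oligodendrocyte lineage markers summed to 3404 and 4938 in controls and 3377 and 6937 after AP bursting. In group means, 4 excitatory neuron markers summed to 53391 and 58617 and 6 inhibitory ones to 30368 and 43329. The excitatory markers did not move together. Slc17a7 and Camk2a, which make up most of the sum, had folds of 1.14 and 1.17 in the authors' deposited table and could not be split into libraries. In the same table Slc17a6 had a fold of 2.48 and Neurod6 one of 0.493, each of these 4 at an adjusted p of 1, and limma with the replicate block called the former higher (adjusted p = 4.3e-09) and the latter lower (4.23e-08). Of the 5 inhibitory markers that could be split, 3 were higher with the block (Gad2, Slc32a1 and Sst), beside 6.87% of all genes. The groups of these 3 overlapped, and none was called in the authors' deposited table or by limma without the block. The 5 summed to 1.31 and 1.58 times the control level in the deep and shallow pairs. The part of these markers in the results below was not tested. Of the glial and vascular markers none was at 0 in all 4 libraries.

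Bdnf was the member that rose in the authors' deposited table, 1 of 8, where 0.61% of all genes rose and 0% fell at an adjusted p below 0.05. Bdnf (ENSMUSG00000048482) lies on chromosome 2, from 109674700 to 109727007 in GRCm38. Its level was 2246 and 758 normalized reads in the deep and shallow controls and 19994 and 6762 after AP bursting. Both AP bursting libraries lay above both controls, and the deep library was the higher one in each group. The authors' deposited table gave a fold of 8.91 (adjusted p = 2e-05). The fold was 8.90 in the deep pair and 8.92 in the shallow pair, with exact 95% counting intervals of 8.57 to 9.25 and 8.23 to 9.68, and these overlapped. The level itself differed within groups, where the deep over shallow ratio was 2.96 under basal activity and 2.96 after AP bursting. limma with the replicate block gave a log2 fold of 3.15 ± 0.16 (SE, adjusted p = 2.36e-80, 0.128 without the variance trend), and limma without the block gave the same fold ± 0.73 (SE) with an adjusted p of 0.783. This call in limma thus rests on both the pairs and the variance trend. In limma without the block, the log2 fold of Bdnf was 3.94 without the deep control or without the shallow AP bursting library and 2.37 without either of the other two, at an adjusted p of 0.108 to 1. In reads mapped to the gene, Bdnf went from rank 3302 to rank 245 of the 23453 genes. In bulk RNA, more cells with Bdnf and more Bdnf RNA per cell cannot be told apart.

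Ntf3 (ENSMUSG00000049107; chromosome 6, 126101412 to 126166910 in GRCm38) encodes NT-3, the other neurotrophin among the members, and stood at a low level that was lower after AP bursting. There were 75.7 and 75.5 normalized reads in the deep and shallow controls and 26.0 and 48.4 after AP bursting. The groups did not overlap, and both control values were alike while the AP bursting values were spread. The fold was 0.343 in the deep pair (exact 95% counting interval 0.224 to 0.513, from 101 and 33 reads) and 0.642 in the shallow pair (0.408 to 0.990, from 69 and 32 reads). The authors' deposited table gave a fold of 0.492 with an adjusted p of 1. limma with the replicate block gave a log2 fold of -1.07 ± 0.32 (SE) and an adjusted p of 0.0114, which ranged from 0.00648 to 0.0404 over 6 alternatives with a variance trend and was 0.245 without the trend. Per kb of the longest annotated transcript, the level of Bdnf over that of Ntf3 was 10.3 and 3.49 in the deep and shallow controls and 268 and 48.5 after AP bursting.

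**Figure D1:**
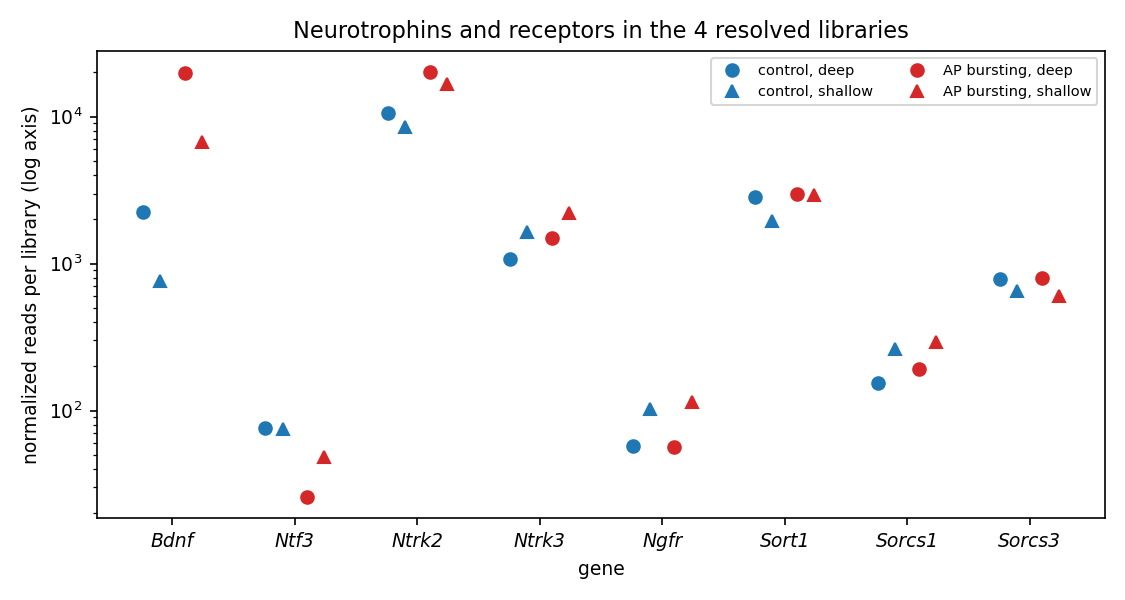
Normalized reads of the 8 genes (log axis) in each of the 4 libraries; circles are deep and triangles shallow libraries, blue is control and red AP bursting. Bdnf lies at 2246 and 758 in controls and 19994 and 6762 after AP bursting, and Ntf3 at 75.7 and 75.5 against 26.0 and 48.4.

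Ntrk2, which encodes the BDNF receptor TrkB in a full-length form and in truncated forms without the kinase, was the most abundant member in controls. The table sums the forms of Ntrk2 (ENSMUSG00000055254; chromosome 13, 58806569 to 59133970 in GRCm38). It had 10569 and 8535 normalized reads in the deep and shallow controls and 20160 and 16590 after AP bursting. The groups did not overlap, and the change was alike in both pairs, 1.91 (counting interval 1.87 to 1.95) in the deep and 1.94 (1.89 to 2.00) in the shallow pair. The authors' deposited table gave a fold of 1.92 with an adjusted p of 1. limma with the block gave a log2 fold of 0.95 ± 0.14 (SE) and an adjusted p of 3.47e-09, which ranged from 1.36e-09 to 0.00104 over the same 6 alternatives and was 0.198 without the trend. Truncated TrkB is known from astrocytes, whose 8 markers summed to 1.09 times the control level in the deep and 1.32 times in the shallow pair. Their part in the Ntrk2 value was not tested.

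Ntrk3, the gene of the NT-3 receptor TrkC, had 1084 and 1638 normalized reads in the deep and shallow controls and 1490 and 2227 after AP bursting. The groups overlapped, because the shallow library was the higher one in each group. Within pairs the folds were 1.38 (counting interval 1.28 to 1.47) and 1.36 (1.26 to 1.46). limma with the block gave a log2 fold of 0.45 ± 0.18 (SE) and an adjusted p of 0.0804, which missed the threshold.

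Ngfr, the gene of the p75 receptor, was a low-level member, with 57.7 and 103 normalized reads under basal activity and 56.7 and 115 after AP bursting. The groups overlapped and the libraries sorted by depth and not by treatment. The folds were 0.982 (counting interval 0.702 to 1.37) in the deep and 1.12 (0.816 to 1.53) in the shallow pair. The adjusted p was 0.935 in limma with the block. A change within those intervals was not detectable with 72 to 94 reads per library. The summed fibroblast and vascular markers were also higher in the shallow library of each group. So were the sums of the astrocyte, microglia, oligodendrocyte lineage and inhibitory neuron markers that could be split. The part of any of these in the Ngfr level was not tested.

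Sort1, the gene of sortilin, had 2845 and 1964 normalized reads under basal activity and 2975 and 2920 after AP bursting. The groups did not overlap, but the lowest AP bursting value exceeded the highest control by little. The fold was 1.05 (counting interval 0.999 to 1.09) in the deep and 1.49 (1.39 to 1.59) in the shallow pair, so the pairs differed beyond counting error. limma with the block gave an adjusted p of 0.243. The AP bursting libraries were alike where the controls were 1.45 apart, deep over shallow.

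Sorcs1 and Sorcs3 encode sortilin relatives of neurons that act in the sorting of synaptic receptors. Sorcs1 had 154 and 261 normalized reads under basal activity and 192 and 292 after AP bursting, and its groups overlapped. Its folds were 1.24 (counting interval 1.03 to 1.51) and 1.12 (0.920 to 1.36), with an adjusted p of 0.637 in limma with the block. Sorcs3 had 782 and 646 normalized reads under basal activity and 803 and 607 after AP bursting, overlapping in both directions. Its folds of 1.03 (0.941 to 1.12) and 0.939 (0.825 to 1.07) lay on either side of 1, with an adjusted p of 0.962 in limma with the block.

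Over the 8 genes, limma with the replicate block called 2 higher (Bdnf and Ntrk2) and 1 lower (Ntf3), against 6.87% and 6.1% of the 20226 genes tested. limma without the block called 0 of 8 in either direction, with 2 at an unadjusted p below 0.05 (Bdnf at 0.00526 and Ntrk2 at 0.0364), and 0.00989% of all genes higher and 0% lower. The libraries of the groups did not overlap for 3 members that were higher and 1 that was lower, against 12.6% and 11.7% of all genes, and 5 members were higher and 1 lower in both pairs, against 31.6% and 32% of all genes. The median log2 fold of the 8 was 0.28, beside -0.015 over all genes tested. An exact permutation test of a single gene cannot go below p = 0.333 (two-sided) with 2 libraries against 2.

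**Figure D2:**
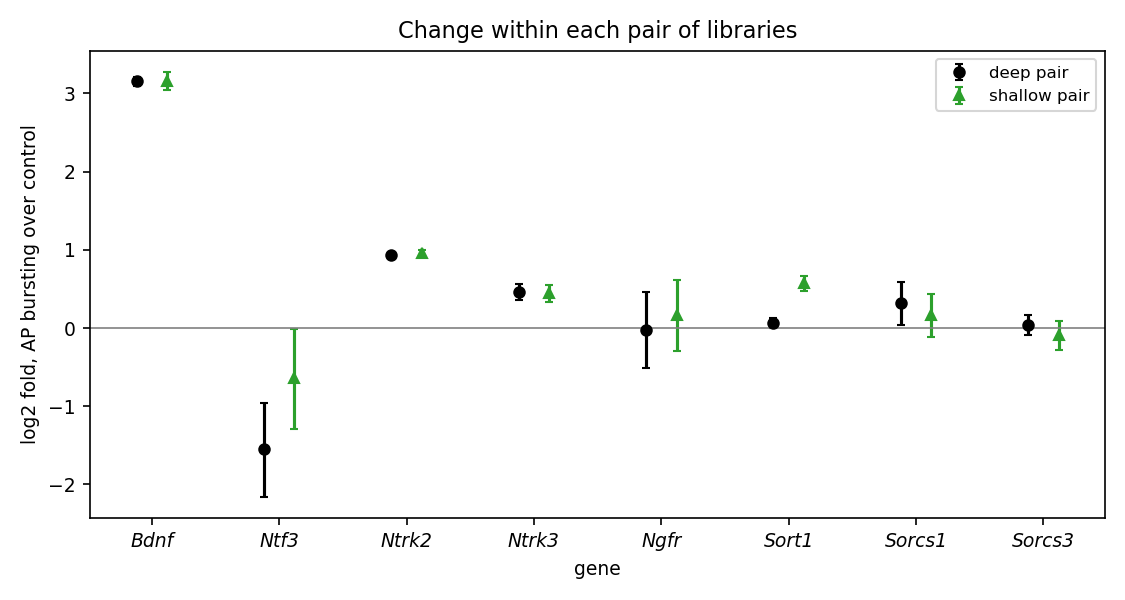
Log2 fold of AP bursting over control within the deep pair (black circles) and the shallow pair (green triangles) for the 8 genes; bars are exact 95% intervals that cover counting error only. Both pairs give a fold near 8.9 for Bdnf and near 1.9 for Ntrk2, while the pairs of Sort1 (1.05 and 1.49) stand apart.

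Levels between genes were compared per kb of the longest GENCODE M21 transcript, which may not be the form expressed (that of Ntrk3 is 19.7 kb and lowers its value). In controls the order of the mean level per kb was Ntrk2 (1092 normalized reads per kb), Bdnf (352), Sort1 (352), Sorcs3 (127), Ntrk3 (69.1), Ntf3 (51.0), Sorcs1 (28.7) and Ngfr (23.3). The libraries of Bdnf and Sort1, and those of Sorcs1 and Ngfr, overlapped in this order. After AP bursting Bdnf came first (3136 normalized reads per kb), then Ntrk2 (2101), Sort1 (431), Sorcs3 (125), Ntrk3 (94.3), Sorcs1 (33.4), Ntf3 (25.1) and Ngfr (24.9). Here Bdnf and Ntrk2 overlapped, as did Sorcs3 and Ntrk3, and Sorcs1, Ntf3 and Ngfr among themselves. Per kb, Bdnf over Ntrk2 was 0.436 and 0.182 in the deep and shallow controls and 2.03 and 0.835 after AP bursting. By this measure Bdnf lay above Ntrk2 in the deep AP bursting library and under it in the shallow one. Bdnf has 11 and Ntrk2 10 annotated transcripts, and other lengths would change these ratios. Which RNA was the more abundant is therefore not settled.

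Of the other ligands and receptors on the list, 0 of 3 were called in the authors' deposited table or by limma with the block, and 0 had an unadjusted p below 0.05 in limma without it. Ntf5, the gene of neurotrophin-4, had 4 control reads and 3 AP bursting reads in all. Sorcs2 and Sorl1, further sortilin relatives, had adjusted p values of 0.440 and 0.446 in limma with the block. Sorcs2 had 2795 and 3288 normalized reads in the deep and shallow controls and 2824 and 4493 after AP bursting, and Sorl1 had 1715 and 1944 against 1783 and 2620. The groups of both genes overlapped.

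Of the genes that cut or sort the precursors, Pcsk1 and Plat rose in the authors' deposited table. These were 2 of 13 in the table, where 0.61% of all genes rose, and 0 fell. The list was written with earlier results of these data known, so its shares are a description and no test. Of 11 tested by limma with the block 3 were higher and 0 lower, beside 6.87% and 6.1% of all genes, with 0 called without the block and 2 at an unadjusted p below 0.05. Pcsk2 and Pcsk7, further convertases, and Hap1 lay below 1, with folds in the authors' deposited table of 0.916, 0.851 and 0.972 (adjusted p = 1 for each). All other genes of this list had a higher mean after AP bursting, among them Furin with a fold of 1.58. That direction has no share of all genes beside it and is no sign of a joint rise. For Plg it rested on 1 read. Mmp9 was mixed, with a fold of 0.722 between the deep libraries and 1.48 between the shallow ones. The median log2 fold of the 11 tested with the block was 0.44. Pcsk1, the gene of prohormone convertase 1, which cleaves precursors in regulated secretory granules, had 1132 and 526 normalized reads under basal activity and 8183 and 3659 after AP bursting. Its libraries did not overlap between groups and were higher in the deep one of each, and the authors' deposited table gave a fold of 7.14 (adjusted p = 0.000163). Plat encodes tissue plasminogen activator, which turns plasminogen into plasmin, a protease that can cut pro-BDNF. It had 534 and 712 normalized reads under basal activity and 3065 and 2710 after AP bursting. The authors' deposited table gave Plat a fold of 4.64 (adjusted p = 0.0113). Its fold was 5.74 (counting interval 5.30 to 6.23) in the deep and 3.81 (3.48 to 4.17) in the shallow pair. The pairs thus differed beyond counting error. Plg, which encodes plasminogen itself, was listed at 0 in controls and at a mean of 0.394 normalized reads after AP bursting.

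Furin, a convertase of the constitutive pathway, had 739 and 1239 normalized reads under basal activity and 1198 and 1921 after AP bursting, overlapping between groups. Its log2 fold in limma with the block was 0.66 ± 0.19 (SE), with an adjusted p of 0.00467. That value ranged from 0.0048 to 0.0531 over the 6 alternatives with a trend and was 0.266 without the trend.

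Downstream of the receptors, 0 of 21 Trk adaptors, effectors and modulators were called in the authors' deposited table, where 0.61% of all genes rose. limma with the block called 2 of the 21 higher and 0 lower, near the 6.87% and 6.1% of all genes. Crkl, an adaptor that links receptors to small GTPases, had a log2 fold of 0.91 ± 0.18 (SE, adjusted p = 1.54e-05, 0.22 without the trend). Lrig1, a transmembrane inhibitor of growth factor receptors, had 0.51 ± 0.18 (SE, adjusted p = 0.0383, up to 0.18 over the alternatives with a trend). Of 15 p75 partners 0 were called in the authors' deposited table, and of 14 tested with the block 0 were higher and 1 lower, the latter near the 6.1% of all genes. That gene was Rtn4r, which encodes the Nogo receptor and had 1122 and 2512 normalized reads under basal activity and 515 and 1689 after AP bursting, a log2 fold of -0.85 ± 0.18 (SE, adjusted p = 0.000112, 0.253 without the trend). Its groups overlapped and it was lower in both pairs.

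**Figure D3:**
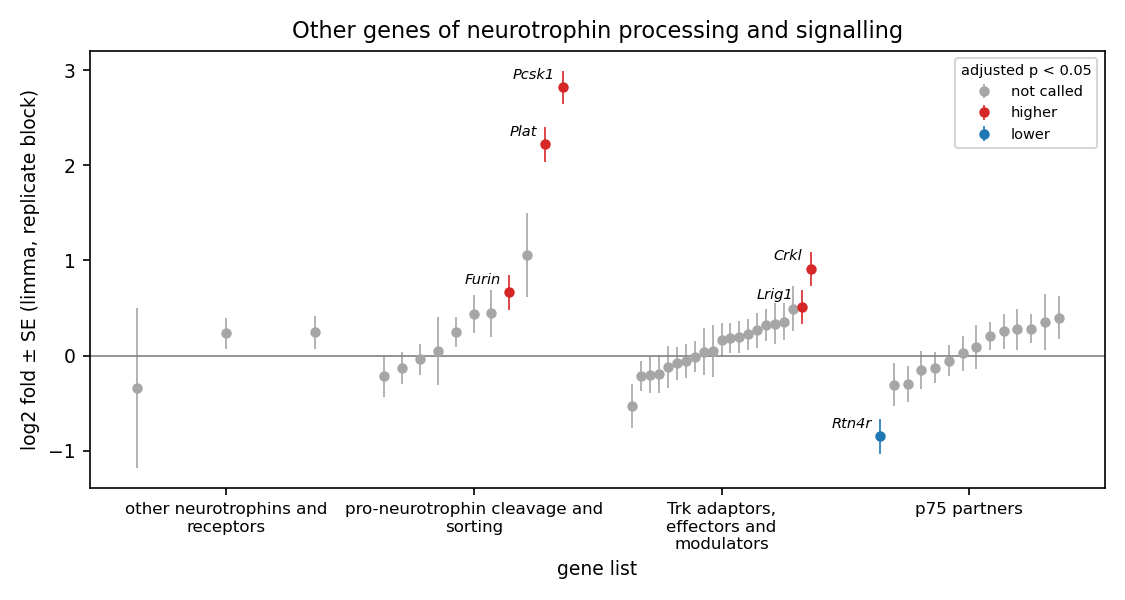
Log2 fold with SE (limma with the replicate block) of the 49 tested genes of 4 lists of neurotrophin processing and signalling; red genes were called higher, blue lower and grey neither. Pcsk1 (2.82) and Plat (2.22) stand highest, both in the cleavage list.

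Over the whole list of 52 genes in the table, 5 of 49 tested were higher and 1 lower with the block, beside 6.87% and 6.1% of all genes, and 0 were called without it (3 at an unadjusted p below 0.05). Its median log2 fold was 0.19, beside -0.015 over all genes.

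The genes whose centred log2 levels over the 4 libraries lay closest to those of Bdnf were picked among the 13648 genes at a mean of 50 or more. By Euclidean distance they were Ifrd1 (0.482), a transcriptional coregulator, Pcsk1 (0.545), 6230419C23Rik (0.630), Col10a1 (0.690), a collagen of cartilage, and Arl5b (0.692), a small GTPase. The median distance of all genes was 3.59, and 12 genes lay within a distance of 1. In the authors' deposited table the folds were 11.4 for Ifrd1, 7.14 for Pcsk1, 5.63 for 6230419C23Rik, 12.4 for Col10a1 and 8.96 for Arl5b. The 5 were picked on these same libraries for likeness to Bdnf, which rose. Their own rise therefore follows from the pick and is no separate result. Col10a1 had means of 22.1 in controls and 273 after AP bursting, and so reached the mean of 50 only through AP bursting. Ifrd1 had 1359 and 455 normalized reads under basal activity and 14598 and 6114 after AP bursting. With 4 libraries this likeness is a description, and it rests on both the treatment and the difference between deep and shallow libraries.

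**Figure D4:**
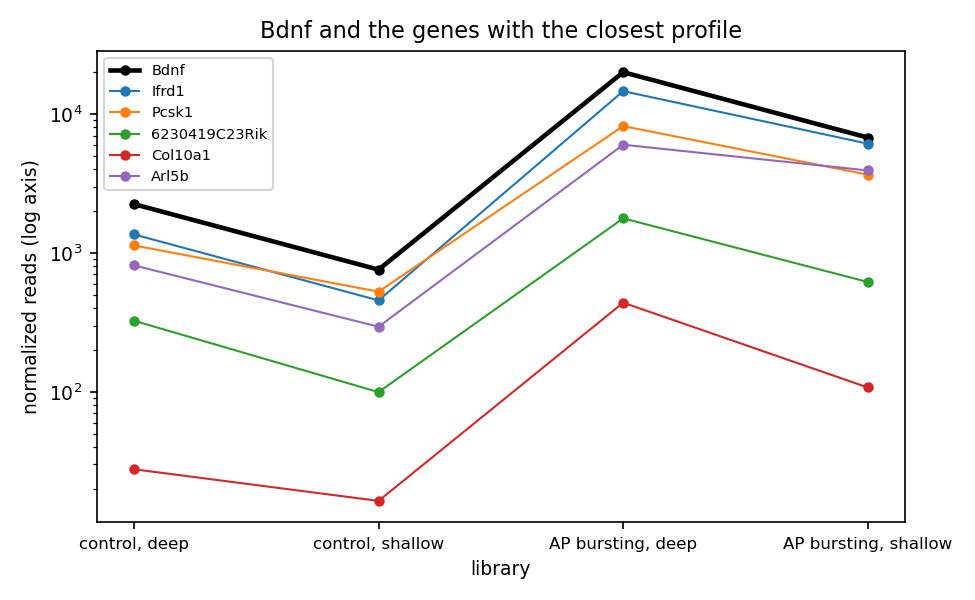
Normalized reads (log axis) of Bdnf (thick black line) and the 5 genes with the closest profile in the 4 libraries; lines join the libraries of 1 gene and imply no order. All 6 genes are higher after AP bursting and higher in the deep than in the shallow library of each group.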

How the data were processed

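Per the labels' protocols the libraries keep no strand, so where genes on opposite strands overlap, the strand cannot tell their reads apart. The submitters' processing notes name TopHat 1.2.0, SAMtools 0.1.19, DESeq 1.12.0 and build mm9; the counting tool is not given in the sources used here. Per the file headers, the authors deposited for each gene a normalized signal (each group's mean of read counts divided by size factors), the ratio (fold) of the groups and an adjusted p-value; 0 other per-sample columns were left out.

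Each mean was split into the 2 libraries by searching for the only pair of whole reads, times the value of 1 read in each library, that gives its 10 printed digits. This succeeded for 23171 control (98.8%) and 23321 AP bursting means (99.4%), and failed only at 10014.5 or higher, where several pairs gave the value. On simulated means 100% of the pairs found were right. The planned edgeR fit needs deposited counts per library, so the test was the authors' fold and adjusted p at 0.05. limma 3.58.1 (R 4.3.3), checked on simulated data, was fitted with a variance trend to log2(value + 1) of 20226 genes at a mean of 1 or more (two-sided, Benjamini-Hochberg), without and with the library pairs as a replicate block. Such folds are too small for low genes. The pairing rests on the deep minus shallow difference, which correlated at r = 0.878 between groups across 13648 genes. The block leaves 1 residual degree of freedom, so its p-values rest on the trend.

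Fold intervals within a pair are exact (Clopper-Pearson, 95%) and cover counting error only. Named were the 8 members, other neurotrophins and receptors, list genes called by the authors or with the block, and the 5 genes closest to Bdnf; Plg, Pcsk2, Pcsk7, Hap1, Frs3 and the marker genes were added after their values were seen. Of the lists, 3 genes are not reported here and enter none of the lists' counts. Members and lists were chosen with earlier results of these data known. Lengths are from GENCODE M21 (GRCm38), sequences from RefSeq. Alternatives were pseudocounts of 0.5 and 5, other filters and scaling, no trend, a GC and length correction, and leaving out each library.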

Additional observations from a re-analysis of the deposited data

How the results depend on the processing

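Bdnf was the 1 member called in the authors' table at thresholds of 0.05 and 0.1. In limma without the block 0 members and 0 list genes were called, also in each leave-one-out fit, where the lone library is taken to vary as the other group does. Adding the replicate block gave 2 members higher and 1 lower, and 5 list genes higher and 1 lower. These member counts held under pseudocounts of 0.5 and 5, no filter, a mean of 50 or more, total-read scaling and the GC and length correction (90.2% of tested genes had both values), where 4 or 5 list genes were higher, or 3 with the correction. Without the variance trend all 4 counts were 0. Total-read scaling used the reads of genes that could be split in both groups. Genes that could be split held 70.2% of the signal in controls and 80.5% after AP bursting. This scaling shifted the median over all genes to a log2 fold of -0.16. It gave 2 lower list genes in limma with the block, with Frs3 (-0.68, adjusted p = 0.0458) beside Rtn4r. Over all genes it gave 995 higher and 1926 lower in place of 1390 and 1234. With the block, leaving out a library leaves 1 pair and no test; the pair folds above are those values.

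The log2 fold of Bdnf ran from 2.37 to 3.94 over the leave-one-out fits without the block, so leaving out 1 library moved its fold by over 1.5 times. Of the uncalled members, 3 changed sign. Ngfr had a log2 fold of -0.078 with total-read scaling. Over the leave-one-out fits Ngfr ran from -0.44 to 0.57, Sorcs1 from -0.14 to 0.61 and Sorcs3 from -0.23 to 0.17. Each leave-one-out fit sets 1 library against a deep and a shallow one, so the deep minus shallow gap enters its fold. The folds of Bdnf within pairs, which leave this gap out, were 8.90 and 8.92. The 2 libraries per group limit every call, and depth limits Ngfr and Ntf3, which had 32 to 101 reads per library.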

Other observations

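The gap between deep and shallow libraries was wider for Bdnf than for most genes. Its log2 difference of deep minus shallow was 1.57 in controls and 1.56 after AP bursting, at percentiles 97.7 and 94.4 of 13648 genes. Ntrk3, Ngfr and Sorcs1 were lower in the deep than in the shallow library of both groups, 3 of the 8 members, and 4 were higher. Ntf3 was the exception, at a ratio of 1.00 in controls and 0.536 after AP bursting.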
